A study of Mus musculus with 5 samples.

Results

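The p53 target genes *Cdkn1a*, *Mdm2*, *Phlda3*, *Ccng1*, *Trp53inp1*, *Zmat3*, *Bax*, *Gdf15*, *Aen* and *Sesn2* were followed through lung injury by bleomycin, a drug that breaks DNA. These 10 members were taken by symbol from the 28692 mouse genes counted. No measured value entered that rule, but the members were chosen with earlier results of these data known. Lung cells of mice with the genotype *Ms4a3-CreER;R26-tdT* were profiled by droplet single-cell RNA sequencing in 5 libraries. The sham library came from PBS-treated lungs, and the other 4 libraries came from lungs taken 3, 7, 14 and 28 days after bleomycin. The drug was instilled through the trachea. All 5 groups carry the same alleles. The Cre is driven in the lineage of *Ms4a3*, a gene of granulocyte-monocyte progenitors and their progeny, and tamoxifen turns on the tdT reporter in those cells and what descends from them. The study used adult male and female mice of mixed C57BL6 and 129 background. How many mice were pooled in a library is not given in the sources used here, and each time point has 1 library, so differences between time points have no replicate check.

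The protein p53 is held at a low level by Mdm2, which tags it for destruction. Breaks in DNA activate kinases that free p53, and it then binds paired decamers near its target genes and raises their transcription. The products stop the cell cycle, repair damage, restrain p53 itself or start cell death, and several of the genes also answer to other forms of stress.

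Of the 10 members, 8 had a RefSeq promoter window of 250 bases before to 50 bases after an annotated start, in 11 windows, while *Trp53inp1* and *Zmat3* had none. A script searched these windows for the p53 consensus of 20 bases, made of abutting decamers, with all 4 core C and G bases kept. The consensus reads the same on either strand. A match with at most 1 base off the consensus lay before *Ccng1* and *Cdkn1a*, and a match with 3 bases off lay just after the start of *Aen*. The matches are shown because they are the letters p53 is known to read, with the core bases in capitals, 5′ to 3′ on the strand of the gene.
Ccng1: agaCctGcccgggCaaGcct
Cdkn1a: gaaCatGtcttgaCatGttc
Aen: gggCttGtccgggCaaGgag
The *Ccng1* match is at chr11:40755462-40755481 on the minus strand and begins 195 bases before the start. The *Cdkn1a* match is at chr17:29090928-29090947 on the plus strand and begins 51 bases before the start. The *Aen* match is at chr7:78895937-78895956 on the plus strand, 11 bases after the start, all in build GRCm38.p6. Of 32851 promoter windows of this length, 22 (0.067%) held a match with at most 1 base off and 453 (1.38%) held one with at most 3 bases off. A match is a description of the letters and was not tied to binding here.

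The deposited values are unique molecular identifiers (UMIs), 1 for each captured RNA molecule. Totals were 89769386 to 167506186 UMIs per library, and 44772 of 52800 barcodes were kept, with between 300 and 8000 genes, between 800 and 60000 UMIs and a mitochondrial share under 15%. Any pair of libraries had 22 to 41 barcode sequences in common, at most 0.42% of a library. The day 7 library stood apart in that its lowest barcode held 4624 UMIs, against 500 to 502 in the others, and in that 1750 of its 9493 kept barcodes carried the markers of unrelated cell classes, against 355 to 493 elsewhere. Such barcodes were left out. Cells were assigned to 18 classes by how many markers of a list they carried, never by a member. The 1119 cells that passed the gates of both alveolar and interstitial macrophages, 11 of them sham and 471 at day 14, were kept as a class of their own and enter no comparison with sham or test between classes, with *Cdkn1a* at 221 to 1261 UMIs per 1000000 (CPM) after bleomycin. Alveolar macrophages (AMs) numbered 5515 in the sham library and 609, 1362, 989 and 2371 at days 3, 7, 14 and 28, and interstitial macrophages (IMs) numbered 58, 1198, 2016, 1865 and 2204. *Itgax*, a defining gene of AMs, stood at 360 to 504 CPM in AMs and at 10.8 to 86.2 CPM in T cells. Each level is the CPM of a class's pooled UMIs in 1 library, and intervals in parentheses are exact 95% intervals that cover counting error only.

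AMs are phagocytes of the air spaces. The paper reports that cells derived from monocytes become AMs in the later phase after bleomycin. AMs were gated here by markers alone and were not split by descent. The part of recruited cells in the ratios to sham was not tested. In AMs, the levels of the genes for cell cycle arrest were highest at day 3. *Cdkn1a*, which encodes the cyclin-dependent kinase inhibitor p21, stood at 388 CPM in sham AMs and at 1099, 617, 477 and 228 CPM at days 3, 7, 14 and 28. Day 3 was the highest of the 5 libraries, at 2.83-fold the sham level (2.77 to 2.89), and day 28 was the lowest, at 0.587-fold (0.574 to 0.600). *Ccng1*, which encodes cyclin G1, a p53 target that acts with the phosphatase PP2A, was at 76.1, 160, 142, 126 and 103 CPM in the same order. It was above the sham level in all 4 bleomycin libraries, by 2.10-fold at day 3 (1.99 to 2.22) and 1.36-fold at day 28 (1.31 to 1.41). *Cdkn1a* and *Ccng1* thus ended on different sides of the sham level.

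*Mdm2*, whose product closes the feedback loop on p53, was at 61.1 CPM in sham AMs and at 111, 84.8, 86.7 and 52.4 CPM at days 3, 7, 14 and 28. Its day 3 level was 1.83-fold the sham level (1.71 to 1.95), and its day 28 level was 0.857-fold (0.818 to 0.898). *Phlda3*, which encodes a repressor of the kinase Akt, was at 38.3, 87.0, 67.4, 45.9 and 156 CPM. It differed from the other members in that day 28 was the highest library, at 4.07-fold the sham level (3.91 to 4.23), against 2.27-fold at day 3 (2.10 to 2.45). *Zmat3*, which encodes an RNA-binding zinc finger protein, was at 17.7, 32.4, 46.6, 35.5 and 30.9 CPM. All 4 bleomycin libraries lay above the sham library, with day 7 the highest at 2.63-fold (2.43 to 2.83).

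Of the genes linked to cell death, *Trp53inp1* showed the greatest ratio to sham of any member in AMs at days 3, 7 and 14. Its product is a stress-induced nuclear protein that takes part in p53-dependent apoptosis. It was at 7.96 CPM in the sham library and at 32.5, 43.1, 38.9 and 28.0 CPM afterwards. Each bleomycin library was therefore several-fold above sham, from 3.52-fold at day 28 (3.22 to 3.85) to 5.41-fold at day 7 (4.93 to 5.94). *Bax*, which encodes the pore-forming death effector of mitochondria, was at 218, 289, 263, 172 and 153 CPM, and the ratio stayed within 1.5-fold throughout, from 1.33 at day 3 (1.27 to 1.38) to 0.702 at day 28 (0.683 to 0.721). *Aen*, which encodes an apoptosis-enhancing nuclease, was at 29.5, 36.5, 27.7, 17.0 and 14.3 CPM. It was lower than in sham AMs at the last time points, at 0.576-fold at day 14 (0.517 to 0.641) and 0.483-fold at day 28 (0.444 to 0.526).

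*Gdf15* and *Sesn2* are also known targets of other stress pathways. *Gdf15*, which encodes a secreted stress cytokine, was at 305 CPM in sham AMs and at 264, 212, 128 and 166 CPM at days 3, 7, 14 and 28. All 4 bleomycin libraries lay below the sham library, down to 0.418-fold at day 14 (0.402 to 0.434). *Sesn2*, which encodes a sestrin that restrains the growth kinase mTORC1, was at 16.0, 23.1, 25.5, 22.3 and 23.3 CPM. Its ratios of 1.39 to 1.60 put all 4 bleomycin libraries above sham, with intervals that overlap one another.

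**Figure D1:**
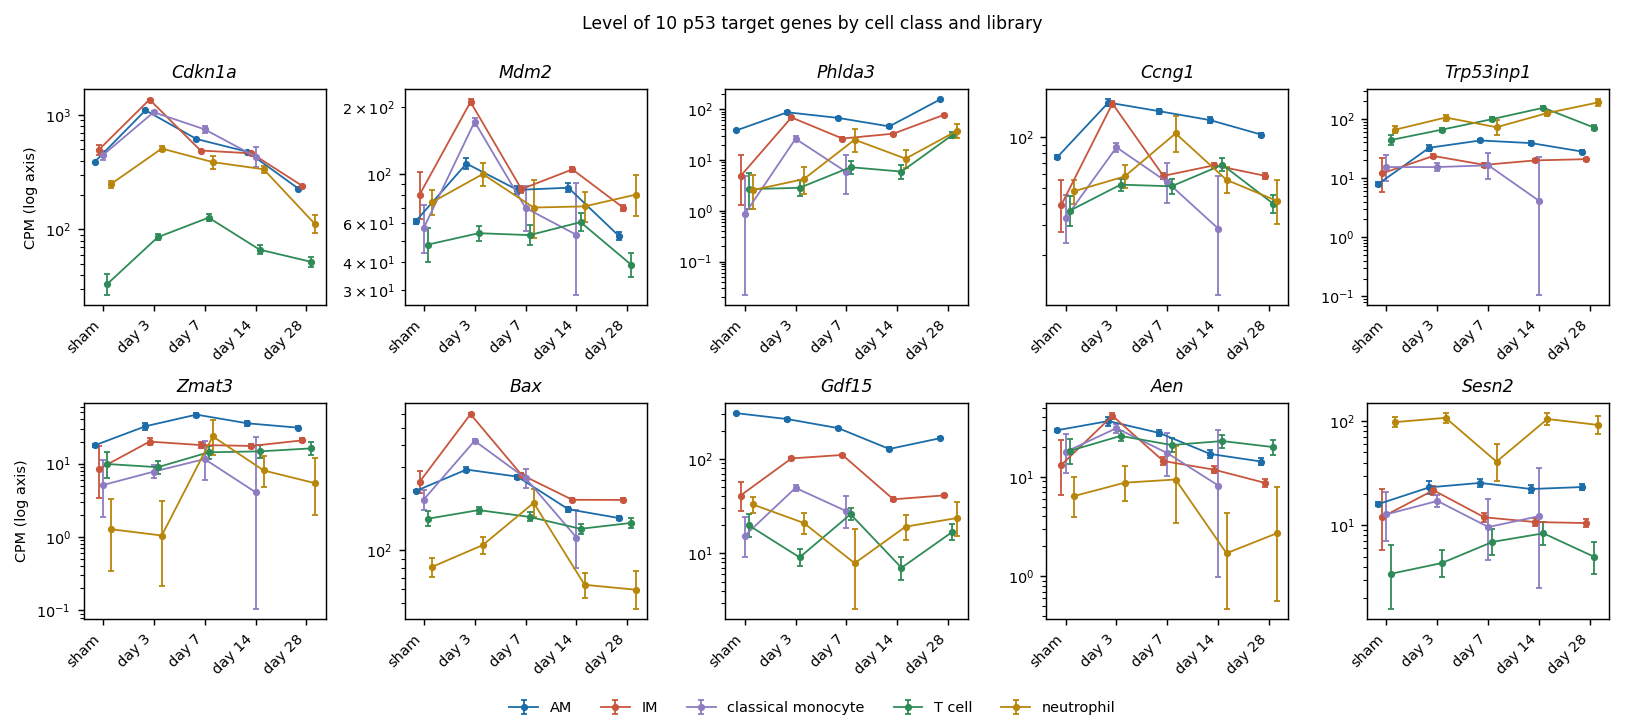
Levels of the 10 genes in AMs, IMs, classical monocytes, T cells and neutrophils, as CPM on log axes that differ between panels, in the sham library and at days 3, 7, 14 and 28. Bars are exact 95% counting intervals, classes under 20 cells are not drawn, and *Phlda3* and *Gdf15* of day 14 classical monocytes, at 0 UMIs, cannot be drawn on a log axis. *Cdkn1a* reached 1099 CPM in AMs and 1363 CPM in IMs at day 3.

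Counted together, 6 of 10 members were at least 1.5-fold higher than sham in AMs at day 3, where 10.7% of all genes tested were. The 6 were *Cdkn1a*, *Mdm2*, *Phlda3*, *Ccng1*, *Trp53inp1* and *Zmat3*. At day 7 there were 6 of 10 (background 13%), at day 14 there were 3 (background 13.1%) and at day 28 there were 3 (background 14.6%). *Trp53inp1* and *Zmat3* were in the count at every time point. In the other direction, *Gdf15* and *Aen* were at least 1.5-fold lower at day 14, where 16.3% of all genes were, and *Cdkn1a* joined them at day 28, where 16.0% were. The median log2 ratio of the 10 members was 0.87, 0.67, 0.39 and 0.11 at days 3, 7, 14 and 28, beside -0.18, -0.08, -0.06 and -0.03 for all genes tested. These 4 comparisons share the sham library. The summed level of the IM markers in AMs was 649 to 776 CPM up to day 14 and 1006 CPM at day 28, 9 or 10 of the 10 being detected with *Tmem119* at 0 at day 3, and their part in the member levels was not tested.

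The share of AMs with a UMI gave the same order for *Cdkn1a* as its summed level. With every cell thinned to 2000 UMIs, 48.4% of sham AMs (47.1 to 49.7) held a *Cdkn1a* UMI, and 81.4% (78.0 to 84.4), 59.0%, 52.8% and 32.0% (30.1 to 33.9) did at days 3, 7, 14 and 28. B cells, where the gene is low, had shares of 5.15%, 7.12%, 12.95%, 7.08% and 4.42%. Median depth before thinning was 14427 to 21813 UMIs in AMs and 3221 to 6439 UMIs in B cells. *Phlda3* was found in 6.86% of sham AMs and in 13.7%, 10.6%, 7.50% and 22.0% at days 3, 7, 14 and 28, against at most 2.34% of B cells in any library. Day 28 was again the highest. Unthinned shares were 92.4%, 98.2%, 94.2%, 94.4% and 80.3% for *Cdkn1a* and 31.4%, 55.7%, 47.1%, 45.2% and 73.5% for *Phlda3*.

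In IMs, the C1q-rich macrophages of the lung tissue, 7 of 10 members were highest at day 3. *Phlda3* and *Zmat3* were highest at day 28 and *Gdf15* at day 7. The paper reports that infiltrating monocytes first become IMs after bleomycin. With cells thinned to 2000 UMIs, 33.3% of sham IMs held a reporter UMI, and 64.8%, 38.5%, 72.9% and 35.4% did at days 3, 7, 14 and 28. IMs were not split by descent, and the part of recruited cells in their ratios to sham was not tested. *Cdkn1a* was at 495 CPM in the sham library and at 1363, 489, 462 and 240 CPM at days 3, 7, 14 and 28. Day 3 was 2.76-fold above sham (2.50 to 3.04), days 7 and 14 did not differ from sham beyond counting error, and day 28 was 0.485-fold (0.440 to 0.537). *Mdm2* followed with 80.7, 212, 85.5, 105 and 70.4 CPM. *Bax* was at 246, 597, 270, 194 and 194 CPM, so that its day 3 ratio of 2.43 (2.12 to 2.80) was well above the 1.33 of AMs. *Ccng1* was at 39.7, 158, 58.8, 68.0 and 58.9 CPM, and *Aen* was at 13.2, 41.3, 14.4, 11.8 and 8.69 CPM. Both were highest at day 3, by 3.97-fold (2.82 to 5.78) and 3.12-fold (1.73 to 6.27).

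*Gdf15* took another course in IMs than in AMs, with 40.9 CPM in the sham library and 101, 110, 37.3 and 41.1 CPM afterwards. Days 3 and 7 were 2.47-fold (1.76 to 3.58) and 2.69-fold (1.92 to 3.90) above sham, and days 14 and 28 lay at the sham level within counting error. *Phlda3* rested on 4 UMIs in sham IMs, at 4.82 CPM, against 68.9, 26.4, 33.0 and 77.9 CPM after bleomycin. As in AMs, day 28 was the highest, at 16.2-fold (6.31 to 59.4), with day 3 at 14.3-fold (5.58 to 52.6). *Trp53inp1*, *Zmat3* and *Sesn2* had 7 to 10 UMIs each in sham IMs. Their day 3 ratios were 1.96 (1.05 to 4.11), 2.37 (1.14 to 5.94) and 1.80 (0.970 to 3.79).

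All 10 members were at least 1.5-fold higher in IMs at day 3, where 22.4% of all genes were. The count was 3 of 10 at day 7 (17.7%), 4 at day 14 (18.1%) and 3 at day 28 (19.3%), while *Cdkn1a* and *Aen* were at least 1.5-fold lower at day 28, where 28.4% of all genes were. The median log2 ratio of the members was 1.35, 0.30, 0.14 and -0.09, beside 0.01, -0.09, -0.12 and -0.17 for all genes. On the log2 scale, IM ratios by total UMIs differed from those scaled by TMM factors by -0.15, -0.18, -0.30 and -0.35 at days 3, 7, 14 and 28, so that the day 28 median of the members turned positive with TMM, at 0.25 beside 0.18 for all genes. The member counts with TMM were 10, 5, 5 and 4. The shares of all genes at least 1.5-fold higher and lower moved from 22.4% and 22.4% to 27.9% and 18.2% at day 3, from 17.7% and 20.9% to 23.1% and 14.8% at day 7, from 18.1% and 25.1% to 27.4% and 15.1% at day 14, and from 19.3% and 28.4% to 29.9% and 16.8% at day 28. Every IM ratio rests on the 58 sham cells. The summed level of the AM markers in IMs, all 10 detected, was 973 CPM in the sham library and 374, 612, 1062 and 1627 CPM afterwards, and their part in the ratios was not tested.

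Classical monocytes, the blood-derived precursors that enter injured tissue, carried most of the same genes at day 3. *Cdkn1a* was at 445 CPM in sham and 1056 CPM at day 3, *Mdm2* at 57.0 and 172 CPM, and *Bax* at 195 and 420 CPM, which are ratios of 2.38 (2.18 to 2.60), 3.02 (2.37 to 3.91) and 2.16 (1.89 to 2.48). Day 7 lay between them for all 3, with 749, 70.3 and 258 CPM. With cells thinned to 2000 UMIs, 12.3% of the 122 cells at day 7 held a reporter UMI, against 82.6% in sham and 77.4% at day 3. What this difference means for the day 7 levels was not tested. *Gdf15* was at 15.3 CPM in sham and 49.3 CPM at day 3, a ratio of 3.22 (2.02 to 5.48). *Phlda3* had 1 UMI in the 118 sham cells, at 0.85 CPM, and 26.1 CPM at day 3, with a ratio of 30.7 (5.48 to 1218). *Trp53inp1*, in contrast with AMs, was at 15.3 CPM in both libraries, with a ratio of 1.00 (0.616 to 1.73). In all, 8 of 10 members were at least 1.5-fold higher at day 3, where 25.3% of all genes were. The IM markers in these cells summed to 709 CPM in sham, with *Tmem119* and *Folr2* at 0, to 1433 and 1256 CPM at days 3 and 7, all 10 detected, and to 613 CPM at day 14, and their part in the ratios was not tested.

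**Figure D2:**
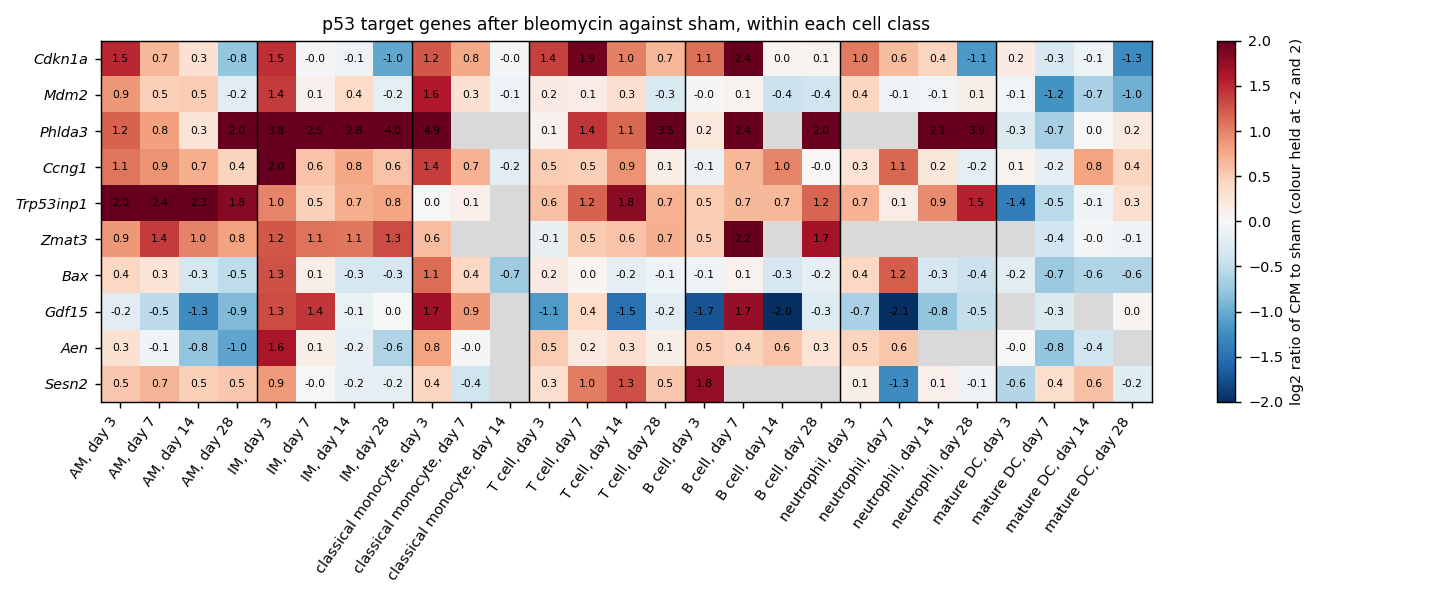
Log2 ratio of each of the 10 genes to the sham library within 7 cell classes at days 3, 7, 14 and 28, on a colour scale held at -2 and 2, with grey where fewer than 25 UMIs were counted in both libraries together and no column for classical monocytes at day 28. The day 3 columns of AMs, IMs and classical monocytes are red for 6, 10 and 8 genes at 1.5-fold or more, and *Phlda3* is red at day 28 in AMs, IMs, T cells, B cells and neutrophils.

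T cells held less *Cdkn1a*, *Phlda3*, *Gdf15* and *Sesn2* than AMs and IMs in each of the 5 libraries, and more *Trp53inp1* than either. Their *Aen* level was 0.619- to 1.40-fold that of AMs, and above it at days 14 and 28. In T cells, *Trp53inp1* was at 43.8 CPM in the sham library and at 65.4, 99.0, 154 and 70.8 CPM at days 3, 7, 14 and 28. Day 14 was the highest, at 3.51-fold (2.90 to 4.29), and the T cell level was above the AM level in 5 of 5 libraries. The 5 red blood cell markers in T cells, all detected at day 14, were also highest there, at 5430 CPM against 0.55 to 716 CPM in the other libraries, and their part in it was not tested. *Cdkn1a* was at 33.1, 85.6, 127, 66.7 and 52.4 CPM in T cells, highest at day 7 by 3.83-fold (3.07 to 4.83). *Phlda3* was at 2.67, 2.84, 7.21, 5.91 and 31.1 CPM, so that day 28 again stood above the rest. The T cell counts of members at least 1.5-fold higher were 1 at day 3 (background 19.4%), 4 at day 7 (27.4%), 5 at day 14 (36.8%) and 4 at day 28 (26.5%). T cell ratios by total UMIs exceeded those scaled by TMM factors by 0.21, 0.30 and 0.19 on the log2 scale at days 7, 14 and 28, and TMM left 4, 5 and 1 members in these counts. The shares of all genes at least 1.5-fold higher and lower moved from 36.8% and 5.37% to 22.1% and 13.3% at day 14, and from 26.5% and 7.71% to 18.9% and 13.03% at day 28.

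AM markers were also found in the T cells, all 10 of them in every library. Their summed level there was 4.65%, 0.662%, 4.30%, 4.07% and 7.98% of that in AMs of the same library, in the order sham, day 3, 7, 14 and 28. *Cdkn1a* in T cells was 8.54%, 7.79%, 20.6%, 14.0% and 23.0% of its AM level, and *Phlda3* was 6.96%, 3.26%, 10.7%, 12.9% and 19.9%. Both exceeded the marker share in all 5 libraries, and both were highest with it at day 28. The part of AM RNA in these levels was not tested.

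In B cells, 6 of the 9 members tested were at least 1.5-fold higher at day 7, where 16.6% of all genes were. *Cdkn1a* was at 39.3, 84.0, 211, 40.3 and 41.1 CPM in the 5 libraries and *Gdf15* was at 20.2, 6.13, 67.7, 5.03 and 16.9 CPM. Day 7 was the highest library for both. The AM markers in B cells stood at 6.17%, 1.40%, 6.82%, 2.48% and 6.63% of their AM level, while *Cdkn1a* stood at 34.2%, *Gdf15* at 31.9% and *Phlda3* at 31.6% of theirs at day 7. Of the other marker lists foreign to B cells, some were also highest there and some were not. The 7 club or secretory cell markers, all detected, summed to 4494 CPM at day 7 against 134 to 1101 CPM in the other libraries, and the 10 IM markers to 422 CPM against 101 to 411 CPM. Neutrophil, T cell, epithelial cell and alveolar type 1 cell markers were highest there too. Markers of alveolar type 2 cells, at 543 CPM, ciliated cells, at 47.7 CPM, and red blood cells, at 0 CPM, were not. Their highest levels were 811 CPM at day 3, 145 CPM at day 14 and 179 CPM at day 14. The AM markers in CPM were highest in sham, at 1350 CPM against 1172 CPM at day 7. The B cell markers themselves were lowest at day 7, at 7116 CPM against 8415 to 11417 CPM. The part of these in the day 7 levels was not tested. A gate that asked for 1 marker fewer left 3 members in this count, and the share of all genes under that gate was not counted.

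**Figure D3:**
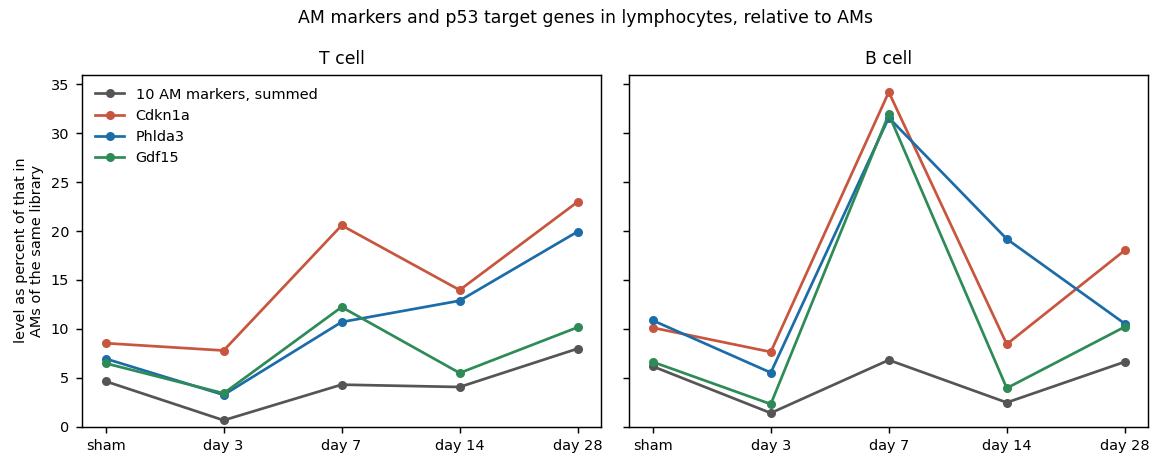
Summed AM markers, *Cdkn1a*, *Phlda3* and *Gdf15* in T cells and B cells as a percent of their level in AMs of the same library, in the sham library and at days 3, 7, 14 and 28. In T cells each of the 4 lines is at its lowest at day 3, and in B cells the 3 genes stand above 30% at day 7 while the markers stand at 6.82%.

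Mature dendritic cells, the *Ccr7* cells that carry antigen to lymph nodes, had the highest sham level of *Cdkn1a* of the 14 classes with 20 cells, at 778 CPM, and it was at 872, 624, 724 and 324 CPM afterwards. No member was at least 1.5-fold higher in them at day 7, where 21.3% of all genes were, and 4 were at least 1.5-fold lower, where 15.1% of all genes were. *Mdm2* was at 93.6, 90.3, 40.7, 59.5 and 48.2 CPM, and *Bax* was at 367, 318, 220, 242 and 243 CPM. Their day 7 ratios were 0.435 (0.329 to 0.583) and 0.599 (0.523 to 0.689). Neutrophils had the highest *Sesn2* level of the classes with 20 cells in 4 of 5 libraries, with 97.5, 107, 40.8, 105 and 91.6 CPM, day 7 being the exception. Their *Trp53inp1* was at 65.2, 105, 72.1, 125 and 189 CPM, below that of T cells at days 7 and 14. The day 7 neutrophils were 67 cells at a median of 7089 UMIs, against 445 to 1080 cells at 2187 to 3368 UMIs in the other libraries. The summed AM markers in neutrophils were 9.0%, 2.3%, 21.3%, 7.7% and 17.3% of their level in AMs of the same library. The part of depth and of AM RNA in these levels was not tested. In the Cd209a-type dendritic cells (cDC2), *Sesn2* was at 13.5, 36.6, 53.9, 40.0 and 30.2 CPM, above sham in all 4 bleomycin libraries, by 4.00-fold at day 7 (2.36 to 7.36).

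Fibroblasts had the highest level of *Phlda3* of any class in the sham library, at 217 CPM, and it changed little up to day 14, at 215, 225 and 199 CPM, with 115 CPM at day 28. *Cdkn1a* in fibroblasts was at 117, 241, 397, 377 and 130 CPM. Its day 7 ratio was 3.38 (2.43 to 4.80), and day 28 was back at the sham level within counting error. At day 7, 5 of 10 members were at least 1.5-fold higher in fibroblasts, where 23.3% of all genes were. A gate that asked for 1 marker fewer left 3, and the share of all genes under that gate was not counted. The class holds 29 to 82 cells per library.

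The samples are labelled as immune cells, but 579 epithelial cells were also caught, 33 of them in the sham library and 226, 193 and 112 at days 7, 14 and 28. *Ptprc*, the gene of the leukocyte antigen CD45, was at 7.0 to 28.7 CPM in them against 474 to 651 CPM in AMs. *Cdkn1a* was at 677, 1233 and 683 CPM at days 7, 14 and 28, and a single cell gave 23.7% of the day 14 UMIs, without which the level was 952 CPM. *Mdm2* was at 147, 152 and 153 CPM, above every other class in each of the 3 libraries. *Phlda3* was at 184, 223 and 156 CPM, and *Trp53inp1* at 137, 201 and 185 CPM. Sham epithelial cells held 42.2 CPM of *Cdkn1a*, 11.2 CPM of *Mdm2*, 1 UMI of *Phlda3* and 0 UMIs of *Zmat3*, for which 3 counts would be 4.22 CPM.

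The sham and bleomycin epithelial cells were not of the same kind. In the sham library 30 of 33 cells carried at least 5 of 7 club cell markers, and *Scgb1a1*, the main secretory product of club cells, took 48.9% of all UMIs, against 23.7%, 16.6% and 12.8% at days 7, 14 and 28. All 10 members were at least 1.5-fold higher at each of these time points, but so were 79.3%, 85.1% and 84.9% of all genes, while 2.38%, 2.06% and 1.87% were lower. With TMM factors, which shifted the median of all genes by 1.09, 1.32 and 1.43 on the log2 scale, 10, 10 and 9 members were higher, beside 37.0%, 40.2% and 37.5% of all genes, and 18.0%, 19.3% and 21.9% were lower. Cells with club markers only, with *Scgb1a1* left out of the total, were therefore compared as a choice made after seeing the data. In them, 8 of 8 members tested were at least 1.5-fold higher at day 7 (background 22.8%), 6 of 6 at day 14 (37.5%) and 4 of 4 at day 28 (35.7%). The median log2 ratio of the members tested was 1.56, 1.88 and 1.51, beside 0.06, 0.39 and 0.25 for all genes. These values rest on 78, 59 and 22 cells against 30. Apart from *Cdkn1a*, *Ccng1* and *Bax*, each member had 0 to 6 UMIs in the 30 sham cells. Such members passed the filter of 25 UMIs mainly through their bleomycin counts, so that their place among the members higher was largely fixed by it. Members it left out at day 14 went both ways. *Gdf15* was at 6.90 CPM against 19.2 CPM in sham and *Sesn2* at 5.18 against 6.38 CPM. *Zmat3* was at 31.1 against 0 CPM and *Aen* at 32.8 against 16.0 CPM. *Cdkn1a* in club-marked cells was at 44.7 CPM in sham (24.4 to 75.0) and at 172, 228 and 159 CPM at days 7, 14 and 28. The sham level rests on 14 UMIs, and a single cell gave 50% of them, against 9.09%, 42.4% and 32.5% at days 7, 14 and 28. With *Scgb1a1* kept in the total, leaving out that cell moved the level from 21.2 to 10.9 CPM in sham and from 84.4 to 78.5 CPM, 117 to 69.7 CPM and 87.4 to 60.3 CPM at days 7, 14 and 28.

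The highest levels belonged to epithelial cells below both cut-offs, with fewer than 5 club markers and fewer than 4 ciliated markers. These cells numbered 111, 117 and 54 at days 7, 14 and 28 and 3 in the sham library. Club markers summed to 15604, 2404 and 1039 CPM in them at days 7, 14 and 28, and markers of alveolar type 2 cells to 2912, 9068 and 13820 CPM. With *Scgb1a1* left out of the total, *Cdkn1a* was at 1451, 1957 and 1414 CPM in them, *Phlda3* at 388, 345 and 281 CPM, and *Ccng1* at 359, 392 and 304 CPM. At day 14 a single cell gave 25.2% of the *Cdkn1a* UMIs, and a single cell gave 27.0% of the *Phlda3* UMIs. With *Scgb1a1* kept in the total, leaving out the top cell moved *Cdkn1a* from 1428 to 1330 CPM, 1953 to 1492 CPM and 1413 to 1324 CPM at days 7, 14 and 28. *Phlda3* moved from 383 to 341 CPM, 345 to 257 CPM and 281 to 233 CPM. Ciliated-marked cells, 37, 17 and 36 in number, held less *Cdkn1a*, at 336, 461 and 81.6 CPM, and less *Phlda3*, at 107, 44.9 and 90.7 CPM. *Mdm2* did not follow this order, with 199, 281 and 236 CPM in ciliated-marked cells beside 272, 211 and 184 CPM in cells below both cut-offs. With 3 such cells in the sham library, no ratio to sham was taken.

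**Figure D4:**
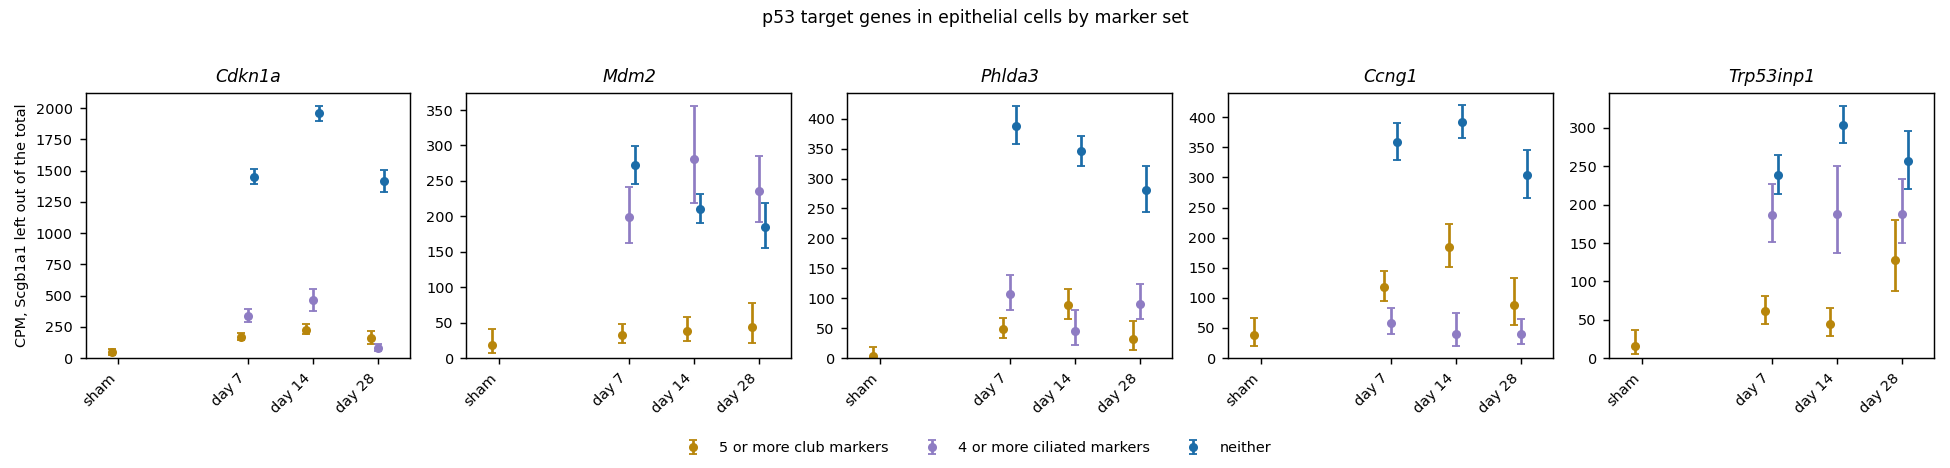
Levels of 5 p53 target genes in epithelial cells with at least 5 of 7 club markers, with at least 4 of 7 ciliated markers or with neither, as CPM with *Scgb1a1* left out of the total, in the sham library and at days 7, 14 and 28. Bars are exact 95% counting intervals, and groups under 15 cells are not drawn. *Cdkn1a* is at 1414 to 1957 CPM in cells below both cut-offs and at 44.7 to 228 CPM in club-marked cells.

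Cell classes were compared within libraries, where the library serves as the block and the 4 or 5 libraries are the replicates, by edgeR's quasi-likelihood test with Benjamini-Hochberg adjustment over all genes tested. Libraries at different times differ in treatment as well, so that the test asks only whether a difference between classes holds across them. Between AMs and IMs, 7 of 10 members differed, where 39.3% of all genes did. *Gdf15* was higher in AMs in 5 of 5 libraries, by 1.92- to 7.46-fold, with a log2 difference of 1.60 ± 0.25 (SE) and an edgeR adjusted p of 0.00247. *Phlda3*, *Zmat3*, *Sesn2* and *Ccng1* were also higher in AMs, by 0.63 to 0.81 on the log2 scale. *Mdm2* was lower in AMs in 5 of 5 libraries, with a log2 difference of -0.55 ± 0.12 and an edgeR adjusted p of 0.0114, and *Bax* was lower with -0.50 ± 0.14 and an edgeR adjusted p of 0.0306. *Cdkn1a* did not pass the test, at -0.21 with an edgeR adjusted p of 0.203, and the AM level was 0.784- to 1.26-fold the IM level. Scaling by total UMIs alone gave 8 members (7 higher, 1 lower), with the split over all genes moving from 2426 higher and 2370 lower to 3284 and 1721 and the median of all genes from 0.00 to 0.15. Leaving out the day 7, day 14 or day 28 library left 4, 3 and 4 members called, and the runs that left out 1 library called 3315 to 4852 of all genes.

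T cells differed from AMs in 9 of 10 members, where 70.2% of all genes differed. *Cdkn1a*, *Phlda3* and *Gdf15* were lower in T cells in 5 of 5 libraries, with log2 differences of -2.80 ± 0.24, -3.28 ± 0.34 and -3.76 ± 0.27 and edgeR adjusted p-values of 2.77e-05, 7.2e-05 and 1.28e-05. *Trp53inp1* was higher in T cells by 1.66 ± 0.24, with an edgeR adjusted p of 0.000413. *Aen*, at -0.05 with an edgeR adjusted p of 0.830, was the member that did not pass. Without the day 7 library *Bax* was lost as well, with an edgeR adjusted p of 0.0729.

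Epithelial cells differed from AMs in 2 of 10 members over 4 libraries, where 54.3% of all genes differed. *Trp53inp1* was higher by 2.06 ± 0.21 and *Aen* by 0.93 ± 0.28, with edgeR adjusted p-values of 6.27e-05 and 0.0216. The runs that left out 1 library called 5252 to 8379 of all genes. Without the sham library, whose epithelial cells are mainly club cells, 6 members were called. *Cdkn1a*, *Mdm2* and *Ccng1* were then higher as well, by 0.82 ± 0.23, 0.83 ± 0.17 and 0.47 ± 0.14, and *Gdf15* was lower by -0.68 ± 0.14, with edgeR adjusted p-values of 0.0179, 0.00394, 0.0246 and 0.00449. The count of all genes called in that run lies within the 5252 to 8379 above and is not given by itself. The 6 calls are therefore not set against a background share. *Aen* did not pass without the day 7 or day 14 library, with edgeR adjusted p-values of 0.103 and 0.162, nor with scaling by total UMIs alone, with 0.289, where the median of all genes moved from -0.08 to -0.22.

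Classical monocytes differed from IMs in 2 of 10 members over 4 libraries, where 7.34% of all genes differed. *Phlda3* was lower in monocytes by -1.76 ± 0.34 and *Gdf15* by -1.53 ± 0.33, with edgeR adjusted p-values of 0.0197 and 0.0270, both in 4 of 4 libraries. *Zmat3*, at -1.07 ± 0.28, just missed the threshold with an edgeR adjusted p of 0.05003, and was called by DESeq2 and with total UMIs alone. *Cdkn1a* was at 0.01 ± 0.21, with an edgeR adjusted p of 0.990. Without the day 7 library neither of the pair was called, with edgeR adjusted p-values of 0.0759 and 0.110 (4 members had an unadjusted p under 0.05), and without the day 3 library 1 member was. Of all genes, 263 to 679 were called in the runs that left out 1 library.

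**Figure D5:**
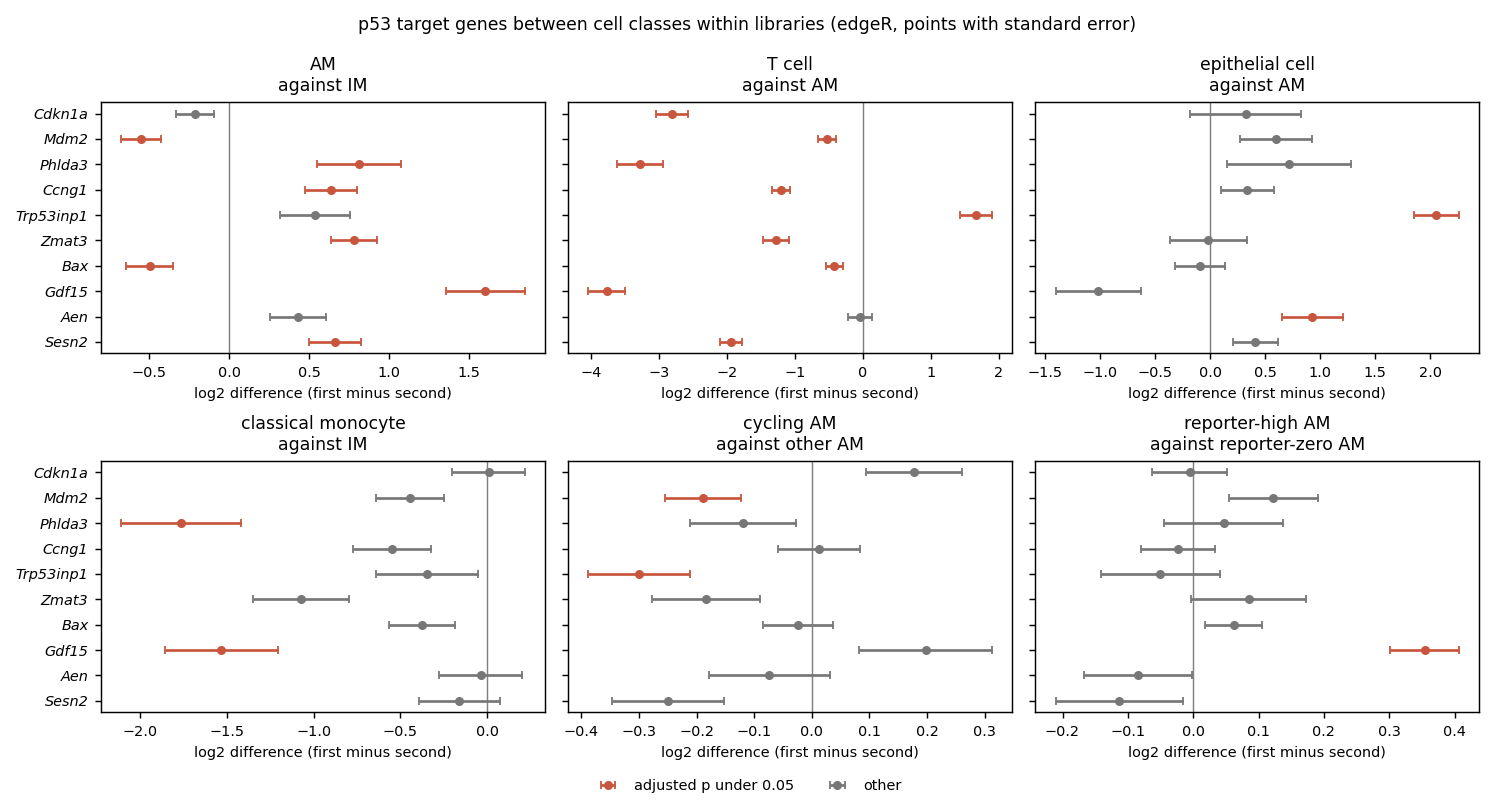
Log2 differences of the 10 genes between cell classes within libraries, each point with its standard error, for the 6 comparisons made with edgeR. Red points passed the adjusted threshold of 0.05 and grey points did not. *Trp53inp1* lies to the right in T cells (1.66) and epithelial cells (2.06) against AMs, and *Gdf15* lies to the left in T cells (-3.76).

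AMs that carried at least 5 of 10 G2/M genes were compared with the other AMs, because p21 arrests the cell cycle. They were 10.6%, 12.0%, 6.27% and 7.30% of AMs in the sham library and at days 7, 14 and 28, and 1.81% (11 cells) at day 3, which was left out of the test. *Mdm2* was lower in cycling AMs by -0.19 ± 0.07 and *Trp53inp1* by -0.30 ± 0.09, with edgeR adjusted p-values of 0.0319 and 0.0133, so that 2 of 10 members differed where 41.6% of all genes did. *Cdkn1a* was at 0.18 ± 0.08 with an edgeR adjusted p of 0.103, and was higher in cycling cells in 3 of 4 libraries. Scaling by total UMIs alone called *Cdkn1a* higher instead, at 0.27 with an edgeR adjusted p of 0.0160, and called neither of the pair, while the split over all genes moved from 2402 higher and 2386 lower to 3070 and 1561. The count was 3 without the sham library and 1 without the day 7 or the day 28 library. Of all genes, 3756 to 4547 were called in the runs that left out 1 library. Cycling AMs were deeper, at a median of 20339.5 to 28692.5 UMIs against 15815 to 21530 UMIs.

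AMs with 3 or more UMIs of the reporter (29.3%, 24.0%, 11.9%, 64.1% and 32.6% of AMs in the 5 libraries) were compared with AMs with none (26.6%, 31.9%, 43.8%, 7.79% and 30.0%). The reporter is made to mark the progeny of *Ms4a3* cells, but it was also found in T cells, which should lack it. With cells thinned to 2000 UMIs, 18.4%, 18.2%, 13.4%, 35.9% and 27.1% of AMs held a reporter UMI, and 19.6%, 14.0%, 18.3%, 39.4% and 22.2% of T cells did, at median depths before thinning of 14427 to 21813 and 3945 to 8017.5 UMIs. In classical monocytes the share was 82.6% in the sham library and 77.4%, 12.3% and 23.1% at days 3, 7 and 14. The AM share was at or below that of T cells in 3 of 5 libraries, so the split is one by reporter UMIs and is not read as one by descent. Only *Gdf15* of the 10 members differed, where 1.32% of all genes did. Its level in reporter-high and reporter-zero AMs was 359 and 251 CPM in the sham library, 315 and 257 CPM at day 3, 235 and 191 CPM at day 7, 120 and 95.1 CPM at day 14, and 168 and 151 CPM at day 28. The reporter-high level was the higher in 5 of 5 libraries, with a log2 difference of 0.35 ± 0.05 and an edgeR adjusted p of 0.00369. Over all genes 113 were higher and 31 lower, and 78 and 38 with total UMIs alone. *Cdkn1a* was at -0.01, with an edgeR adjusted p of 0.999. Reporter-high AMs were deeper, at a median of 17489 to 23168.5 UMIs against 12048 to 17312 UMIs, and depth was not tested as a cause.

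Other genes of the pathway were counted in AMs in the same way. Of a wider list of 36 p53 targets, 32 or 33 were tested at each time point. At least 1.5-fold higher were 9, 8, 6 and 4 at days 3, 7, 14 and 28, where 10.7%, 13%, 13.1% and 14.6% of all genes were. At least 1.5-fold lower were 4, 3, 5 and 10, where 21.4%, 13.2%, 16.3% and 16.0% of all genes were. The median log2 ratio of the list was 0.05, 0.18, 0.13 and -0.07, beside -0.18, -0.08, -0.06 and -0.03 for all genes tested. *Ephx1*, which encodes a microsomal epoxide hydrolase, was at 1.52 CPM in sham AMs and at 8.50, 17.3, 12.7 and 14.1 CPM afterwards, above sham in all 4. *Ckap2*, a gene of the mitotic spindle, was at 12.3, 1.35, 10.0, 3.70 and 6.63 CPM, lowest at day 3. *Epha2*, a receptor tyrosine kinase gene, had 4 UMIs in sham AMs and 43 at day 7, at 0.0398 and 1.82 CPM.

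Among regulators of p53 and the damage kinases, 12 of 14 genes were tested, and 0, 2, 2 and 2 were higher at days 3, 7, 14 and 28, where 10.7%, 13%, 13.1% and 14.6% of all genes were. Those lower numbered 7, 1, 2 and 3, where 21.4%, 13.2%, 16.3% and 16.0% of all genes were. *Cdkn2a*, whose Arf product blocks Mdm2, was at 1.36 CPM in sham AMs and at 0.207, 2.97, 7.01 and 9.11 CPM, with 2 UMIs at day 3 and the highest level at day 28. The counts of *Cdkn2a* were not split by product, and the gene is counted again below among the CDK inhibitor genes. *H2afx*, which encodes the histone variant phosphorylated at DNA breaks, was at 73.0, 28.3, 54.0, 40.9 and 36.3 CPM, and *Chek1*, a checkpoint kinase gene, was at 4.99, 1.35, 3.47, 1.57 and 1.99 CPM. Both were below sham in all 4 bleomycin libraries. The cycling share of AMs was 10.6%, 1.81%, 12.0%, 6.27% and 7.30% in the same order, and its part in these levels was not tested. The 10 G2/M genes were all at least 1.5-fold lower at days 3, 14 and 28, and 3 were at day 7. *Ube2c*, a mitotic ubiquitin-conjugating enzyme gene, was at 85.4 CPM in sham and at 7.67, 58.7, 24.9 and 34.0 CPM, with *Bub1* and *Ccnb2* also lowest at day 3, at 1.04 and 3.53 CPM.

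ATF4, the factor of the integrated stress response, also drives *Sesn2* and *Gdf15*. Of 12 of its targets tested in AMs, 3, 1, 1 and 0 were at least 1.5-fold higher and 5, 7, 6 and 10 lower at days 3, 7, 14 and 28, beside 10.7%, 13%, 13.1% and 14.6% of all genes higher and 21.4%, 13.2%, 16.3% and 16.0% lower. *Asns*, asparagine synthetase, was at 9.05 CPM in sham and at 6.01, 1.53, 2.05 and 0.932 CPM, and *Trib3*, a pseudokinase gene, was at 4.50, 2.80, 1.99, 0.914 and 1.19 CPM. *Chac1*, a glutathione-degrading enzyme gene, had 60 UMIs in sham and 1 to 8 afterwards. All 3 were below sham throughout. Of the 9 BCL2 family genes beside *Bax*, 4, 1, 1 and 2 were higher and 0, 0, 3 and 3 lower, beside the same shares of all genes (10.7% to 14.6% higher and 13.2% to 21.4% lower). *Bcl2l11*, which encodes the death activator Bim, was at 64.5 CPM and then 101, 115, 175 and 117 CPM, above sham at every time point, while *Bid* was above it at days 3 and 28 and below it at day 14, at 4.29, 7.16, 5.00, 1.48 and 7.82 CPM. *Bcl2a1d*, which shares reads with near-identical copies and is uncertain for that reason, was at 228, 196, 194, 97.2 and 88.8 CPM. Of the 6 CDK inhibitor genes beside *Cdkn1a*, 0, 2, 3 and 2 were higher and 4, 1, 3 and 3 lower, beside these same shares, with *Cdkn2c* at 12.6, 0.519, 9.15, 3.22 and 7.10 CPM and *Cdkn1c* at 76 UMIs in sham and 3 to 11 afterwards.

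Over 60 groups of at least 50 cells of 1 class in 1 library, the genes whose pattern was most like *Cdkn1a* among 6226 genes were *Nfe2l2* with a Pearson r of 0.81, *Ifrd1* with 0.79, *Stx12* and *Tax1bp3* with 0.78 each, and *Ralb* with 0.77, on the scale of log2 of the CPM plus 10. Of the other 9 members, *Bax* (0.59), *Mdm2* (0.53) and *Ccng1* (0.51) were nearest, and *Trp53inp1* was the member with a negative value, at -0.25. The groups share libraries and depth, and the values are a description.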

How the data were processed

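Lung cells in 5 libraries were profiled with 10X 3′ chemistry. The deposited values are unnormalized UMI counts, which the authors made with Cell Ranger 6.0.0 on mm10 per the labels. Members and gene lists were chosen with earlier results of these data known. The members were named in full, and of each other list the 3 genes with the greatest log2 ratio among those called in AMs. Class markers, gates and lists are the same in all libraries. Barcodes with markers of unrelated classes (3544), of no class (5130) or of both AMs and IMs (1119) entered no comparison between libraries. CPM of summed UMIs carry exact Poisson intervals and ratios to sham exact binomial intervals, which cover counting error only, as PCR copies were removed by UMI. Genes with 25 UMIs in both libraries together were tested against a ratio of 1.5, without p-values. Classes of at least 20 cells were compared with edgeR 4.0.16 (R 4.3.3; quasi-likelihood, TMM, library as block, threshold 0.05), after tests on simulated data. Alternatives were DESeq2 1.42.0, other scalings, filters, gates, Scrublet in scanpy 1.11.5, and each library left out. Thinning to 2000 UMIs used fixed seeds. Where the study's mice were pooled is not given in the sources used here, so p-values measure the spread between libraries.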

Additional observations from a re-analysis of the deposited data

Results flagged for a closer look

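*Cdkn1a* at day 28 stood on different sides of the sham level in different classes, at 0.587-fold in AMs, 0.485-fold in IMs and 1.58-fold in T cells. *Gdf15* did so at day 3, at 2.474-fold in IMs and 3.223-fold in classical monocytes against 0.456-fold in T cells and 0.303-fold in B cells. The AM markers in T cells and B cells were also lowest at day 3, at 0.662% and 1.40% of their level in AMs. In T cells these markers were highest at day 28, at 7.98%. T cell ratios by total UMIs exceeded those scaled by TMM factors by 0.19 on the log2 scale at day 28, where TMM left 1 member at least 1.5-fold higher. The differences between classes were not tested, because each time point has 1 library.

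Barcodes that passed no class gate, which no comparison uses, held *Cdkn1a* at 1188.05 CPM at day 3 and 722.53 CPM at day 7, against 353 CPM in the sham library. They numbered 629 in the sham library, at a median of 1305 UMIs, and 942 and 987 at days 3 and 7, at 5712.5 and 10700 UMIs.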

How the results depend on the processing

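Between 1 bleomycin and 1 sham library only counting error is known, and low members in IMs, neutrophils and fibroblasts rest on fewer than 20 sham UMIs. Members counted past 2-fold in place of 1.5-fold were 2 (AMs, day 7), 1 (AMs, day 14), 1 lower (AMs, day 14), 1 lower (AMs, day 28), 2 (IMs, day 14), 1 lower (IMs, day 28), 1 lower (mature dendritic cells, day 7) and 1 (T cells, day 28), as a stricter fold must give. TMM factors gave 5 (IMs, day 7), 1 lower (IMs, day 28), 2 (T cells, day 3) and 1 (T cells, day 28), and averaging the CPM of single cells gave 5, 1 lower, 2 and 2 for the same. A looser gate gave 5 higher and 1 lower (IMs, day 28), 3 (B cells, day 7), 3 (fibroblasts, day 7) and 2 (T cells, day 3). Without cycling cells there were 1 lower (IMs, day 28) and 2 (T cells, day 3), where Scrublet, a mitochondrial limit of 10% and a stricter gate also gave 2 and the day 7 UMI floor gave 3. Club-marked cells with *Scgb1a1* left out, chosen after seeing the data, gave 6 at day 14 and 4 at day 28, with fewer members tested. Shares of all genes past the same cut were counted for the main setting, the TMM factors and the club-marked cells only. Without such shares, the counts under the other settings are not read as results about the members. The cause of the other shifts was not tested.

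Without the library block, which pairs classes of 1 library by construction, members called were 1 for AMs against IMs (3071 of all genes), 0 for monocytes against IMs (153), 0 for cycling AMs (1246) and 0 for reporter-high AMs (1) by edgeR. In these 3 tests 2, 0 and 0 members had an unadjusted p under 0.05 without the block, and DESeq2, run with it, called 3, 2 and 1. With no filter on low counts 1479 genes were called for monocytes, 5 members for cycling AMs and 433 genes for reporter-high AMs. Cycling AMs had 1 member with total UMIs only and 1 with Scrublet, and reporter-high AMs had 72 genes with DESeq2 and 87 with Scrublet. Leaving out 1 library gave 3 to 8 members and 3315 to 4852 genes for AMs against IMs, 8 to 9 and 7420 to 8196 for T cells, 1 to 6 and 5252 to 8379 for epithelial cells, 0 to 2 and 263 to 679 for monocytes, 1 to 3 and 3756 to 4547 for cycling AMs, and 1 and 64 to 153 for reporter-high AMs. None of the 23 member calls changed direction under any alternative run.

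Thinned to 4000 UMIs, shares of AMs in the order sham, day 3, 7, 14 and 28 were 68.1%, 91.3%, 76.7%, 71.1% and 47.7% for *Cdkn1a* and 11.6%, 25.4%, 18.9%, 14.9% and 39.8% for *Phlda3*. Unthinned they were 92.4%, 98.2%, 94.2%, 94.4% and 80.3%, and 31.4%, 55.7%, 47.1%, 45.2% and 73.5%.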
